A study of Mus musculus with 16 samples.

Results

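Transcripts of 5 chemokine ligands (Cxcl1, Cxcl2, Cxcl9, Cxcl10 and Cxcl16) and 3 chemokine receptors (Cxcr2, Cxcr4 and Ccr1) were followed in macrophages and microglia sorted from mouse brains. These 8 genes were taken as a group by name, with earlier results of these data known. They are 8 of the 18576 genes to which the transcripts of the tables could be assigned. The mice, females and males, were WT C57BL/6N littermates or CD163KO mice, which carry the constitutive CD163tm1.1(KOMP)Vlcg allele and so lack the hemoglobin-haptoglobin scavenger receptor in every cell. Each mouse was injected into both striata at 12 weeks of age with murine α-synuclein (α-syn), as monomers (MONO) or as preformed fibrils (PFF), and the cells were sorted 2 months post-injection (p.i.). All groups therefore carried injected α-syn, and no uninjected group entered this comparison. A group held 7 WT or 5 CD163KO mice, except for 4 mice in the male CD163KO MONO group. The macrophage gate (CD11b+/CD45high, 10000 to 30000 cells) covers the macrophages at the borders of the brain, infiltrated macrophages, and also NK cells and neutrophils, and the microglia gate is CD11b+/CD45low/intermediate (200000 to 500000 cells). There were 16 libraries, so that every combination of these factors within a population was represented by 1 library.

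Chemokines are small secreted proteins that guide leukocytes along a gradient through G protein-coupled receptors. In the CXC family, CXCL1 and CXCL2 act on CXCR2 and draw neutrophils, while CXCL9 and CXCL10 are induced by interferons and act on CXCR3 of T cells and NK cells. CXCL16 is made as a membrane protein that ADAM proteases can shed, and its receptor is CXCR6. CXCR4 binds CXCL12 and holds neutrophils and progenitors in the bone marrow, and CCR1 binds CC chemokines such as CCL3, CCL5, CCL6 and CCL9.

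The 4 inducible ligand genes lie as neighbouring pairs on mouse chromosome 5 (build GRCm38.p6). Cxcl1 (chr5:90891245-90893121, plus strand) and Cxcl2 (chr5:90903899-90905938, plus strand) are 10777 bases apart, and Cxcl9 (chr5:92321331-92328079, minus strand) and Cxcl10 (chr5:92346638-92348889, minus strand) are 18558 bases apart. Cxcl16 lies at chr11:70454389-70459984, Cxcr2 at chr1:74153994-74161246 on the plus strand, Cxcr4 at chr1:128588199-128592299 on the minus strand and Ccr1 at chr9:123962126-123968692 on the minus strand. The 250 bases before the RefSeq start of the 4 inducible ligands are shown because the members of each pair were set side by side in the results. Each runs 5′ to 3′ along the strand of its gene (chr5:90890995-90891244, chr5:90903649-90903898, chr5:92328080-92328329 and chr5:92348890-92349139, in the order shown), and capitals mark NF-κB-type words (GGGA and TTCC with 1 or 2 bases of any kind between them) and an interferon-response-type word (GAAA repeated after 2 bases of any kind), searched on both strands.
Cxcl1: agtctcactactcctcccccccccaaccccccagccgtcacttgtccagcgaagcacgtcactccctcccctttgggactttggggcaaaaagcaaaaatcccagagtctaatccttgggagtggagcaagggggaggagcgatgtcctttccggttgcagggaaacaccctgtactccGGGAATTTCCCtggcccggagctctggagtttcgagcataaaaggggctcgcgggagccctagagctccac
Cxcl2: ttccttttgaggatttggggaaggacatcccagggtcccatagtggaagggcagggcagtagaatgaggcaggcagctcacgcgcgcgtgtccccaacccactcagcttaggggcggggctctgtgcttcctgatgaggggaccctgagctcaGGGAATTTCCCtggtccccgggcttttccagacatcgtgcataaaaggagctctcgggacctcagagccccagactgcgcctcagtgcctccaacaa
Cxcl9: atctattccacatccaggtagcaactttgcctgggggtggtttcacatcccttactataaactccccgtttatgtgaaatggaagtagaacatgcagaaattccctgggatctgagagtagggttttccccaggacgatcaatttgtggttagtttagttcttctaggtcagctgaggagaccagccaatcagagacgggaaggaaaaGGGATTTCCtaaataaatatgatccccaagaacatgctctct
Cxcl10: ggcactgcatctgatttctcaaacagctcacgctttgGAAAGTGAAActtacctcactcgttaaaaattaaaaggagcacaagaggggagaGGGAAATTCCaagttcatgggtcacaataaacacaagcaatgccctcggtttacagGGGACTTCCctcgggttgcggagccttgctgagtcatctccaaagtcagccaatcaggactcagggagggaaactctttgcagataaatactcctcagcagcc
Cxcl1 and Cxcl2 held the same stretch, GGGAATTTCCC, in which matches with 2 free bases on both strands overlap, at 71 and 97 bases before the start. Cxcl9 held GGGATTTCC at 42 bases before the start, and Cxcl10 held GGGAAATTCC at 159 and GGGACTTCC at 103 bases. The interferon-response-type word was found only before Cxcl10 among these 4 (GAAAGTGAAA, 213 bases before the start). Of 32851 RefSeq promoter windows of the same length, 1.21% held the NF-κB-type word with 2 free bases, 1.43% that with 1 free base and 2.98% the interferon-response-type word. No match was found before Cxcr2, Cxcr4 or Ccr1, and the window of Cxcl16 was not analysed here.

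The libraries were first checked against their labels. Cd163 was listed with at most 1 estimated count in the 4 CD163KO macrophage libraries and with 748 to 5275 in the 4 WT ones, whereas microglia held 5 to 23 counts in CD163KO and 0 to 101 in WT, so that the genotype was visible in macrophages only. The summed counts of the Y-linked Ddx3y, Eif2s3y, Kdm5d and Uty were 350 to 6545 in male libraries and 0 to 2 in 7 of the 8 female ones, while the microglia library labelled female CD163KO MONO held 799. The male CD163KO MONO and male WT PFF libraries stood apart in both populations: their 10 leading genes took 16.6% and 16.5% of the counts in macrophages (39.7% to 64.0% in the other 6) but 47.7% and 58.7% in microglia (13.5% to 16.4% in the other 6). Both male CD163KO MONO libraries, excluded by the study, are described here but did not enter the main fits. Neutrophil markers were at an FPKM of 1 or more for 12 of 12 genes in every macrophage library, with a summed FPKM of 22163 to 134671, against 977 to 2869 in microglia. All 12 markers of homeostatic microglia were detected in every microglia library.

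Levels are given as FPKM, the fragments assigned to a gene relative to transcript length and library depth, which can be compared between genes. In macrophages, Cxcl16 had the highest median FPKM of the 8 genes (93.2, range 76.6 to 125 over 8 libraries). It was followed by Ccr1 (35.3), Cxcr2 (33.1) and Cxcl2 (25.9), whose ranges overlapped, then by Cxcl10 (9.27), and by Cxcl1, Cxcr4 and Cxcl9 at medians of 3.75, 3.06 and 2.10 with overlapping ranges. In microglia Cxcl16 again had the highest median (67.0, range 27.9 to 86.3), followed by Cxcr2 (14.1), Ccr1 (5.05) and Cxcl10 (4.32), whose ranges overlapped. Cxcl2, Cxcr4, Cxcl9 and Cxcl1 had medians of 0.475, 0.255, 0.22 and 0.065 in microglia, and none of these 4 was above an FPKM of 3.59 in any microglia library.

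**Figure D1:**
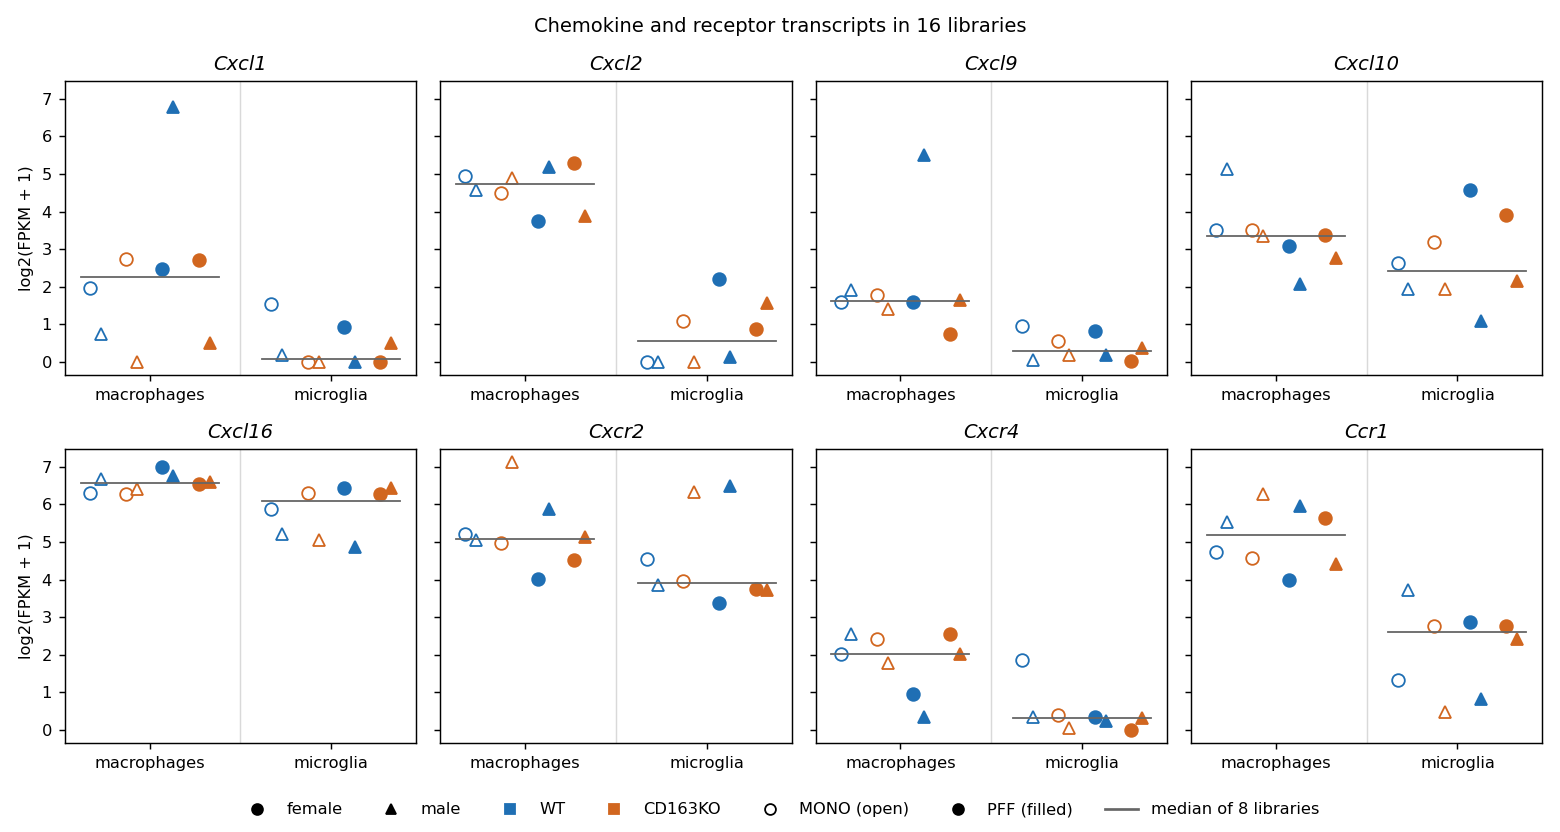
Each point is 1 library, with log2(FPKM + 1) on the vertical axis and the 8 libraries of each population side by side (circles female, triangles male, blue WT, orange CD163KO, open MONO, filled PFF, line the median of 8). Cxcl2 and Ccr1 lie higher in macrophages with no overlap, whereas the ranges of Cxcl16, Cxcl10 and Cxcr2 overlap between the populations, and single points stand far above the rest for Cxcl1 and Cxcl9.

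The first comparison asked how the 8 transcripts differ between the sorted populations. In an edgeR fit of 14 libraries with TMM scaling, called means an adjusted p of at most 0.05 and a log2 fold change of at least 1 in size. Of the 8 genes, 6 had at least 10 counts in 3 or more libraries of each population, and 5 of these 6 were called lower in microglia. Of the 10389 genes that met this condition in both populations 20.4% were called and 13.1% were called lower in microglia, and of all 12819 genes tested 21.1% and 13.2%. Cxcl1 and Cxcr4 met it in macrophages only, where their levels were higher than in microglia, and so had to differ between the populations to be tested at all. In microglia Cxcl1 had a median of 0.5 counts and at most 15, and Cxcr4 a median of 6.5 and at most 40, so that their fitted values (-6.20 and -4.22) are given without a reading. Among the other 6 the difference was largest for the neutrophil-attracting ligand Cxcl2, with a log2 fold change of -6.38 (95% interval -8.17 to -4.59, adjusted p = 5.9e-05, edgeR). Cxcl9 differed by -4.92 (-6.94 to -2.90) and Ccr1 by -4.16 (-5.03 to -3.29), with edgeR adjusted p of 0.0014 and 3.9e-06. Cxcl10 and Cxcl16 were called with smaller differences of -2.28 (-3.75 to -0.81, adjusted p = 0.026, edgeR) and -2.14 (-2.82 to -1.45, adjusted p = 0.00019, edgeR). Cxcr2 did not pass, at -1.63 (-3.43 to 0.17, adjusted p = 0.19, edgeR). In sorted bulk RNA, fewer cells of a type and less RNA per cell cannot be told apart. Since each library is a different combination of sex, genotype and treatment, a p-value here measures the spread left after additive terms for those factors.

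The size of these differences depended on the scale and the test. With limma on log2(FPKM + 1), without TMM scaling, the same 6 genes were still lower in microglia, but Cxcl10 (-0.57), Cxcl16 (-0.67) and Cxcr2 (-0.72) were not called, whereas Cxcl2 (-3.75) and Ccr1 (-2.59) were. Cxcl9, Cxcl1 and Cxcr4 (-1.69, -2.12 and -1.34) were called too, but reached an FPKM of 1 in at most 1 microglia library. On that scale the median gene was 1.12 higher in microglia, against 0.16 with TMM, 5617 genes were called higher and 631 lower (5.66% of the 11154 tested), whereas edgeR called 1017 higher and 1692 lower. Relative to the median gene, Cxcl10, Cxcl16 and Cxcr2 were 1.69, 1.79 and 1.84 lower on the FPKM scale, where these 3 values are the log2 distances below the median gene. With the combination of sex, genotype and treatment as a block, which pairs the populations, Cxcr2 was called (-2.42, adjusted p = 0.017, edgeR) and Cxcl10 was not (adjusted p = 0.057, edgeR). The pair labelled female CD163KO MONO held 0 Y-linked counts in macrophages and 799 in microglia, and with the block but without that pair neither Cxcr2 (-2.27, adjusted p = 0.059, edgeR) nor Cxcl10 (adjusted p = 0.14, edgeR) was called, while Cxcl2, Cxcl9, Cxcl16 and Ccr1 were. Without male WT PFF in both populations, all 6 genes were called, with Cxcr2 at -2.91 and Cxcl9 at -4.38, and the fitted value of Cxcl1 moved to -4.27 and that of Cxcr4 to -4.84. Leaving out single combinations or 1 library ended the call of Cxcl10 in 7 of 8 cases (adjusted p of 0.0032 to 0.087, edgeR), among them the omission of only the microglia library labelled female CD163KO MONO (adjusted p = 0.059, edgeR).

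**Figure D2:**
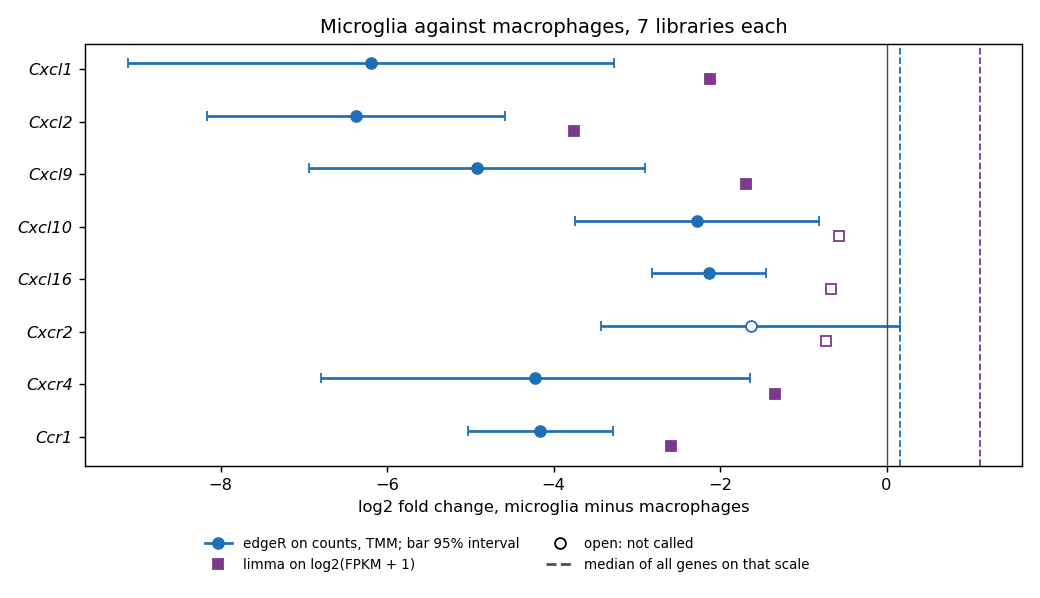
Log2 fold changes of microglia against macrophages for the 8 genes from edgeR on counts with TMM scaling (circles, bars the 95% interval) and from limma on log2(FPKM + 1) (squares), with filled symbols for called genes and dashed lines for the median of all genes on each scale (0.16 and 1.12). All 16 values lie below 0, Cxcr2 is open on both scales, and Cxcl1 and Cxcr4 passed the count filter through macrophages only.

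Cxcl1 and Cxcl2, the ligands of CXCR2, were set beside each other library by library. In WT macrophages, Cxcl1 was 2.94 in female MONO, 0.69 in male MONO, 4.57 in female PFF and 109.9 in male PFF. In CD163KO macrophages it was 5.62 in female MONO, 0 in male MONO, 5.57 in female PFF and 0.42 in male PFF. A single library, male WT PFF, thus stood far above the other 7, with 1860 estimated counts against at most 90. In microglia Cxcl1 reached 1.91 in female WT MONO and 0.90 in female WT PFF, was 0.41 in male CD163KO PFF and 0.13 in male WT MONO, and was listed at 0 in the other 4 libraries.

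Cxcl2 was more even. In WT macrophages it was 30.1 in female MONO, 22.8 in male MONO, 12.6 in female PFF and 35.7 in male PFF, and in CD163KO macrophages 21.4, 28.9, 38.3 and 13.9 in the same order. All 8 macrophage libraries lay above all 8 microglia libraries, and the male WT PFF library, which stood highest for Cxcl1, was within the range of the others. In WT microglia Cxcl2 was 0 in both MONO libraries, 3.59 in female PFF and 0.10 in male PFF, and in CD163KO microglia it was 1.12 in female MONO, 0 in male MONO, 0.85 in female PFF and 1.99 in male PFF. These microglia values rest on at most 59 estimated counts per library.

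The interferon-inducible ligands Cxcl9 and Cxcl10 behaved differently from each other. In WT macrophages Cxcl9 was 2.04 in female MONO, 2.79 in male MONO, 2.00 in female PFF and 44.4 in male PFF. In CD163KO macrophages it was 2.46, 1.64, 0.69 and 2.15 in the same order. As for Cxcl1, the male WT PFF library was the only one of the 8 that stood high, with 2340 estimated counts against at most 154 in the other 7. Among 11201 genes that passed the count filter over the 8 macrophage libraries, 5.55% were more than 4 times higher in male WT PFF than in any other library, and Cxcl1 and Cxcl9 were 2 such genes among the 8 members. With TMM-scaled FPKM this library was still highest, at 82.01 for Cxcl1 and 33.1 for Cxcl9, but the next-highest values were then 13.95 and 6.11, against 5.62 and 2.79 by FPKM. Cxcl9 did not exceed 0.93 in any microglia library.

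Cxcl10 was lowest in the very library in which Cxcl9 was highest. In WT macrophages Cxcl10 was 10.4 in female MONO, 34.4 in male MONO, 7.51 in female PFF and 3.23 in male PFF, and in CD163KO macrophages it was 10.5, 9.20, 9.34 and 5.78. The highest value was therefore found in male WT MONO, with 706 estimated counts, and the remaining 7 libraries held 64 to 186. In WT microglia Cxcl10 was 5.20 in female MONO, 2.84 in male MONO, 22.8 in female PFF and 1.15 in male PFF, and in CD163KO microglia it was 8.21, 2.83, 13.9 and 3.44. Every microglia library labelled female was above every male one on this scale, but not after TMM scaling (2.498 to 11.8 and 1.42 to 3.51), and in both genotypes the female PFF library was above the female MONO library. One of the 4, labelled female CD163KO MONO (8.21), held the 799 Y-linked counts, and its value lay above that of female WT MONO (5.20), so that with its sex in doubt the order of the sexes is not settled. Beside these ligands, male WT PFF macrophages had the highest values of 7 of 15 interferon-induced genes, among them Gbp5 (34.5 against at most 0.39 elsewhere). The same library was highest for 5 of 13 NF-κB target genes, among them Tnf (105 against at most 58.5) and Il1b (536 against at most 311), and for 29.2% of all genes that passed the filter. It also listed 5 of the 13 NF-κB target genes and 3 of the 15 interferon-induced genes at 0, against 0 to 2 of each list in the other 7 macrophage libraries, and was lowest for 26.5% of all genes that passed the filter. It listed 9524 transcripts, against 11800 to 16626 in the other 7 macrophage libraries, and the part of these library features in the Cxcl1 and Cxcl9 values was not tested.

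**Figure D3:**
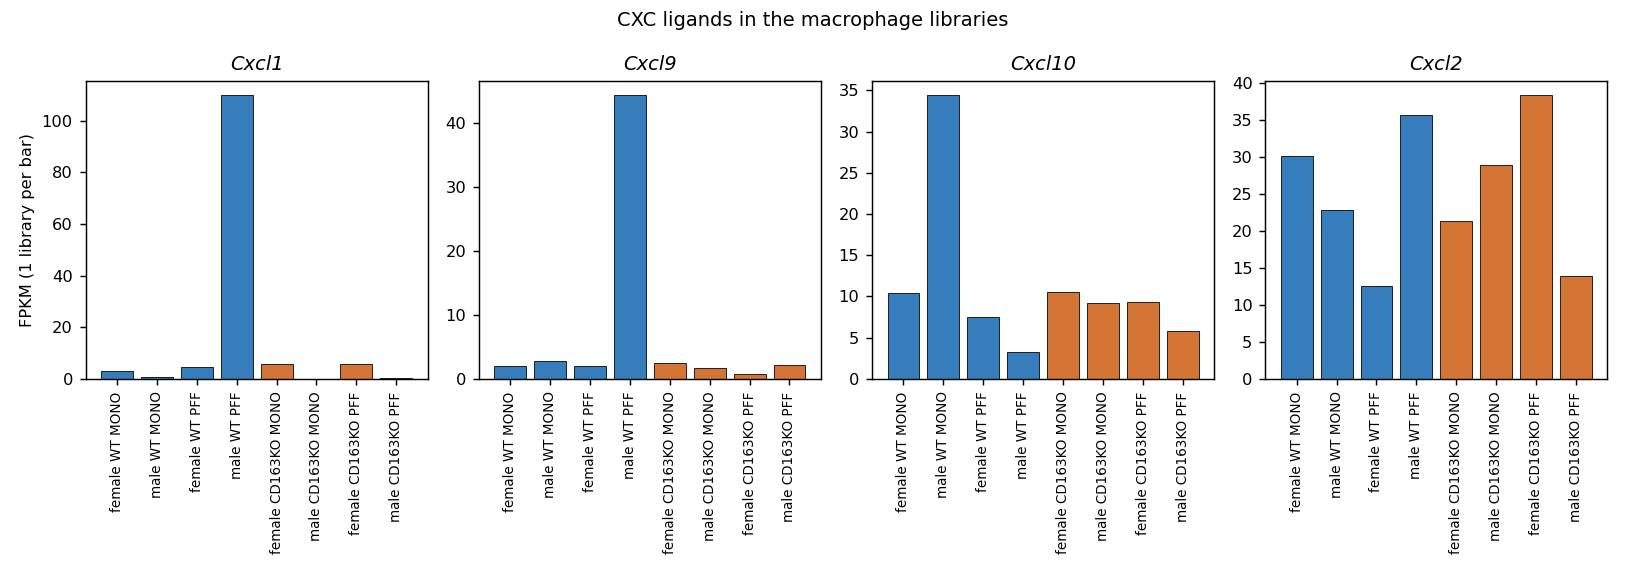
FPKM of 4 CXC ligands in the 8 macrophage libraries (1 library per bar, no error bar because each combination has 1 library, blue WT, orange CD163KO, each panel with its own axis from 0). Cxcl1 and Cxcl9 peak in male WT PFF at 109.9 and 44.4, Cxcl10 peaks in male WT MONO at 34.4, and Cxcl2 varies between 12.6 and 38.3.

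Cxcl16, the membrane-bound ligand, was present in all 16 libraries. In WT macrophages it was 77.8 in female MONO, 101 in male MONO, 125 in female PFF and 107 in male PFF, and in CD163KO macrophages it was 76.6, 83.7, 91.2 and 95.1. Within each sex and genotype, the PFF value was above the MONO value in macrophages, and the highest and lowest of the 8 differed by 1.64 times on the FPKM scale. After TMM scaling the 8 values ran from 53.4 to 383, a wider relative spread than that of Ccr1 (36.8 to 78.6), Cxcr2 or Cxcl2 (18.4 to 62.3), and the order of PFF above MONO held in female WT and male CD163KO macrophages only, since PFF was then lower in female CD163KO (148 against 170) and male WT (79.8 against 115). In WT microglia Cxcl16 was 57.3 in female MONO, 36.3 in male MONO, 86.3 in female PFF and 27.9 in male PFF, and in CD163KO microglia it was 78.4, 32.0, 76.6 and 85.7. The microglia values spanned 3.09 times on the FPKM scale and 3.62 times after TMM scaling (18.1 to 65.5), with 3 of the 4 male libraries at an FPKM of 27.9 to 36.3 and no common order by treatment. For matched combinations the ratio of macrophages to microglia was between 0.978 and 3.83 on the FPKM scale.

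Cxcr2, the receptor of CXCL1 and CXCL2, did not follow its ligands. In WT macrophages it was 36.0 in female MONO, 32.0 in male MONO, 15.3 in female PFF and 58.1 in male PFF, and in CD163KO macrophages it was 30.2, 138, 21.8 and 34.1. In WT microglia it was 22.3, 13.5, 9.46 and 88.2 in the same order, and in CD163KO microglia 14.7, 79.9, 12.49 and 12.2. The 4 highest values over both populations were thus those of male CD163KO MONO and male WT PFF, the libraries that stood apart, and in male WT PFF microglia exceeded macrophages (88.2 against 58.1). After TMM scaling both microglia libraries still stood far above the other 6 (98.9 and 207 against at most 10.7), whereas the 8 macrophage libraries lay between 35.4 and 87.9 and male WT PFF was no longer high among them (43.3).

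Neutrophils, which carry CXCR2, were followed by 12 marker genes, whose order among the microglia libraries depended on the scale. By FPKM, none of the 12 was above the other 6 microglia libraries in male CD163KO MONO or male WT PFF microglia, and 4 were below all 6 in each. On that scale 2.57% and 1.61% of genes were above the other 6, and 57.3% and 71.9% below. After TMM scaling, 4 markers (Ly6g, S100a9, Csf3r and Retnlg) were above the other 6 in male CD163KO MONO and 7 (S100a8, S100a9, Csf3r, Camp, Ngp, Lcn2 and Elane) in male WT PFF, beside 21.3% and 18.4% of genes. Below the other 6 were then 1 marker (Ltf) in male CD163KO MONO and 0 in male WT PFF, beside 15.6% and 15.2% of genes. S100a8, a subunit of the neutrophil protein calprotectin, was then 671 in male CD163KO MONO and 2040 in male WT PFF, against at most 833 in the other 6. Csf3r, the receptor of the growth factor G-CSF, was 128 and 160.3 against at most 117, and the neutrophil surface marker Ly6g was 2.19 and 0.868 against at most 1.63. Csf3r does not mark neutrophils alone here, since it was called higher in microglia than in macrophages, as given below. In macrophages Ly6g was 19.0 to 94.6 by FPKM, against at most 3.22 in microglia. The part of neutrophil RNA in the Cxcr2 values was not tested. The gene whose pattern was most like that of Cxcr2 over the 16 libraries was Slfn5 (Pearson's r = 0.94 of log2(FPKM + 1), a description over libraries from 2 populations). Slfn5 was 39.7 and 30.8 in the male CD163KO MONO libraries and 20.2 and 22.2 in the male WT PFF libraries of macrophages and microglia, against at most 12.1 elsewhere. RSEM gave Cxcr2 and Cxcl16 fractional counts in all 16 libraries, so some of their reads were divided with other transcripts.

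**Figure D4:**
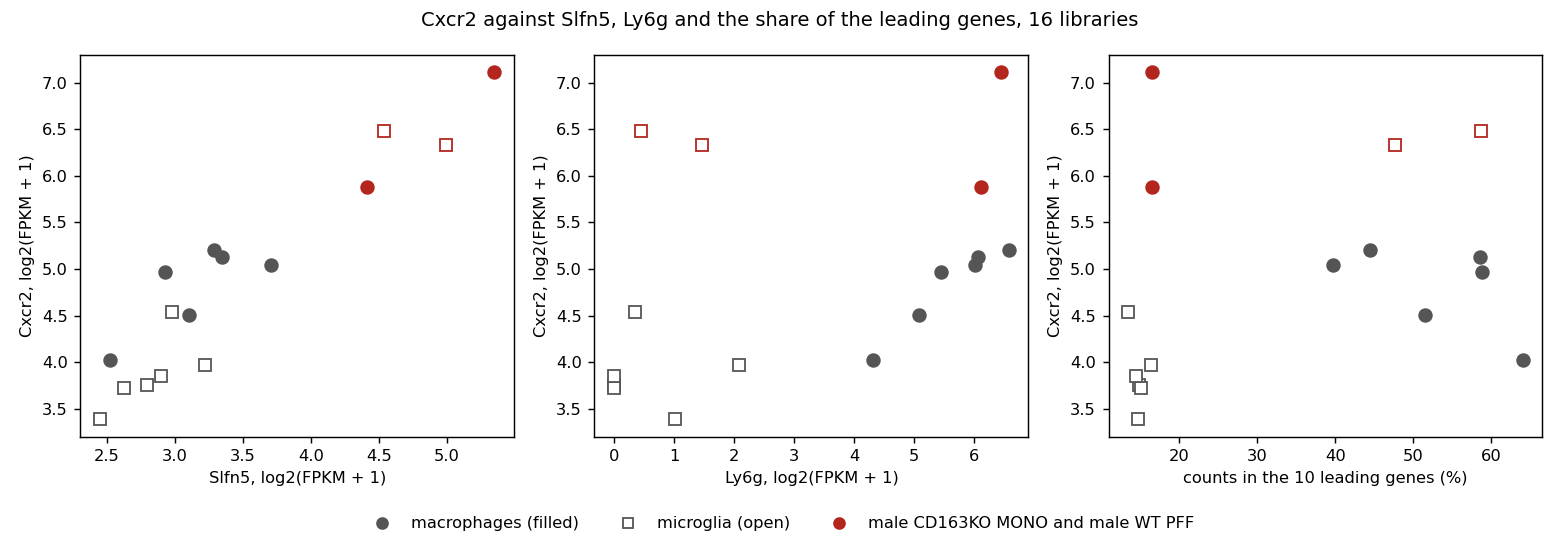
Cxcr2 as log2(FPKM + 1) against Slfn5, against Ly6g (both as log2(FPKM + 1)) and against the percentage of counts in the 10 leading genes, for 8 macrophage (filled circles) and 8 microglia libraries (open squares), with male CD163KO MONO and male WT PFF in red. By FPKM, the red points are highest for Cxcr2 and Slfn5 in both populations, while Ly6g separates macrophages from microglia and the share of the leading genes is low for the red macrophage points and high for the red microglia points.

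Cxcr4, the receptor of CXCL12, was low throughout. In WT macrophages it was 3.08 in female MONO, 4.89 in male MONO, 0.95 in female PFF and 0.28 in male PFF, and in CD163KO macrophages it was 4.34, 2.42, 4.85 and 3.05. The 2 WT PFF libraries were the lowest of the 8 (after TMM scaling the female one, at 2.90, lay above male CD163KO MONO at 1.54), and the CD163KO PFF libraries lay within the range of the MONO libraries. In microglia Cxcr4 was 2.60 in female WT MONO and at most 0.31 in the other 7. RSEM assigned the Cxcr4 reads of a library to either of 2 RefSeq transcripts, whose values were summed.

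Ccr1, the receptor of CC chemokines, separated the populations in every combination. In WT macrophages it was 25.8 in female MONO, 44.9 in male MONO, 14.96 in female PFF and 60.6 in male PFF, and in CD163KO macrophages it was 22.9, 76.3, 48.3 and 20.2. In WT microglia it was 1.53, 12.2, 6.35 and 0.78 in the same order, and in CD163KO microglia 5.79, 0.40, 5.79 and 4.32. Macrophages were thus above microglia in all 8 matched combinations. By FPKM the ratio was 2.36 to 191 times, and the lowest microglia values were those of male CD163KO MONO and male WT PFF. After TMM scaling male CD163KO MONO microglia stayed lowest (0.495), but male WT PFF (1.83) lay above female WT MONO (0.735). Of 12923 genes, 3.32% were higher in macrophages in all 8 combinations on the FPKM scale, among them Cxcl2, Cxcl9 and Ccr1. Cxcr4 was so too by FPKM, and in 7 of 8 after TMM scaling. It met the count filter through macrophages only, where it was higher, so it is given without a reading.

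The second question was whether PFF changed the 8 transcripts relative to MONO. In macrophages, fitted over 7 libraries with terms for genotype and sex, no member was called and no gene of 11067 was (0% called by edgeR, 125 genes at an unadjusted p under 0.05, and 5 genes by DESeq2). The members' log2 fold changes ran from -1.21 for Cxcr4 to 1.72 for Cxcl1 (95% interval -3.28 to 6.71, adjusted p = 1.00, edgeR), and Cxcl16, higher with PFF in every sex and genotype by FPKM, differed by 0.74 (-0.46 to 1.94), and by -0.36 without female WT PFF. Cxcl9 differed by 0.50 (-2.57 to 3.57), by 0.13 without male WT PFF and by -0.94 without male WT MONO, while Cxcl1 ran from 0.12 without male WT MONO and 0.45 without male WT PFF to 5.17 without female CD163KO MONO. Cxcr4 ran from -2.47 without female WT PFF to -0.47 without male WT MONO. Cxcl10 differed by -0.94 (-3.26 to 1.37), and by 0.20 without male WT MONO. By FPKM the 4 PFF libraries (3.23 to 9.34) were below the 3 MONO libraries of the fit (10.4 to 34.4). Cxcl10 was 1 of 8 members with such a gap, which 6.39% of genes showed, but with the male CD163KO MONO library, at 9.20, no member had one (3.99% of genes), and after TMM scaling the arms overlapped.

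In microglia, 6 members passed the count filter and none was called, beside 0% of 11737 genes (737 at an unadjusted p under 0.05, and 30 called by DESeq2). The log2 fold change was 4.00 for Cxcl2 (-1.73 to 9.72, adjusted p = 0.78, edgeR), 1.18 for Cxcl10 (-0.47 to 2.82, adjusted p = 0.77, edgeR) and 0.79 for Cxcl16 (-0.06 to 1.65, adjusted p = 0.76, edgeR). The value of Cxcl16 ran from 0.29 without male WT MONO to 1.28 without the library labelled female CD163KO MONO, and that of Cxcl2 from 1.55 without female WT PFF to 7.48 without that same library. Cxcr2 differed by 0.85 (-2.09 to 3.79), by -0.54 without male WT PFF and by -0.49 without male WT MONO. The arms of all 6 members overlapped, beside 8.58% of genes without overlap over 7 libraries and 0.891% over 8. Cxcl1 and Cxcr4, with at least 10 counts in fewer than 3 microglia libraries, were not tested. The difference of the PFF effect between microglia and macrophages was largest for Cxcl2 (3.19, -1.04 to 7.42) and Cxcl10 (2.34, -1.04 to 5.72) among the 8, and neither was called (adjusted p = 1.00 for both, edgeR, 0% of 12819 genes called, 120 at an unadjusted p under 0.05, and 43 called by DESeq2). Over the fits that left out 1 combination, this difference ran from 1.02 (without female WT PFF) to 6.87 (without female CD163KO MONO) for Cxcl2, and from 1.45 (without male WT MONO) to 3.24 for Cxcl10.

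The third question was whether the loss of CD163 changed them. In macrophages Cd163 itself was the only gene called between CD163KO and WT (log2 fold change -11.34, adjusted p = 0.016, edgeR, 0.00904% of genes tested, 76 at an unadjusted p under 0.05), and no gene was called in 6 of 7 fits that left out 1 library. The members ran from -0.85 for Cxcl9 (95% interval -3.59 to 1.90) to 1.82 for Cxcr4 (-1.45 to 5.08), with an adjusted p of 1.00 in each case (edgeR). Leaving out 1 library moved Cxcl9 to between -2.57 (without female CD163KO MONO) and -0.080 (without male CD163KO PFF), with -0.090 without male WT PFF, and Cxcr4 to between 1.16 (without male WT PFF) and 3.10 (without female WT PFF). Cxcl1 differed by -0.69 (-5.92 to 4.53), a direction that turned without male WT PFF (0.22), female CD163KO PFF (0.16) or male CD163KO PFF (0.98). In microglia the members ran from -1.49 for Cxcr2 (-4.32 to 1.33) to 2.19 for Cxcl2 (-2.60 to 6.98), and no gene was called (0% called by edgeR, 141 at an unadjusted p under 0.05, and 3 by DESeq2). Without male WT PFF, Cxcr2 differed by 0.08, and without the microglia library labelled female CD163KO MONO, Cxcl2 differed by -0.17. The genotype effect was set between the populations as well, and for Cxcr4 and Cxcr2 it differed by -4.26 (-10.95 to 2.43) and -1.51 (-4.48 to 1.45) in microglia minus macrophages, with no call (0% by edgeR, 86 at an unadjusted p under 0.05, and 34 by DESeq2). For Cxcr4 it ran from -6.24 to -2.74 (without male WT PFF), and for Cxcr2 from -3.43 (without female WT PFF) to -0.051 (without male CD163KO PFF), with -0.32 without male WT PFF. Cxcr4 met the count filter through macrophages only and had 0 to 9 counts in the CD163KO microglia of the fit. Its values here are therefore given without a reading. The FPKM of the genotypes overlapped for every tested member in both populations, beside 2.04% of genes without overlap in macrophages and 3.63% in microglia over 7 libraries, and 0.625% and 0.488% over 8.

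Whether PFF acted differently in CD163KO than in WT was tested as an interaction. In macrophages it was -6.24 for Cxcl1 (95% interval -12.84 to 0.35, adjusted p = 1.00, edgeR) and -4.03 for Cxcl9 (-8.22 to 0.15, adjusted p = 1.00, edgeR). Without male WT PFF the values were -2.20 and -3.14. Each microglia interaction rests on a single CD163KO MONO library. That library, labelled female, held 799 Y-linked counts, so its sex is in doubt. In microglia Cxcl2 stood at -6.74 (-19.52 to 6.05, adjusted p = 0.95, edgeR) on the few counts given above, and ran from -9.61 without male WT PFF to -4.10 without female CD163KO PFF. Cxcr2 stood at -3.60 (-7.62 to 0.41, adjusted p = 0.95, edgeR), and at 0.96 without male WT PFF. No gene of either population was called (0% by edgeR, 47 and 505 genes at an unadjusted p under 0.05, and 11 and 29 by DESeq2). The fit leaves 2 residual degrees of freedom, and without female WT PFF, with 1 left, Cxcl1 and Cxcl9 in macrophages and Cxcr2 in microglia were called together with 3504 and 147 genes.

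Males and females were compared last. In microglia Cxcl10 was lower in males by 1.81 on the log2 scale, with FPKM of 1.15 to 3.44 in 4 male libraries and 5.20 to 22.8 in 4 libraries labelled female, but it did not pass the adjustment (log2 fold change -1.81, 95% interval -3.54 to -0.08, adjusted p = 1.00, edgeR). Without the microglia library labelled female CD163KO MONO, which held 799 Y-linked counts, the value was -1.65 and no member had an unadjusted p under 0.05. By the labels it was 1 of 6 members whose female and male microglia did not overlap, beside 5.43% of all genes over 7 libraries and 4.84% over 8, but that library, at 8.21, lay within the range of the other 3 labelled female (5.20 to 22.8), so that no gap would be left were it male. Cxcr2 differed by 2.03 (-1.71 to 5.76), by -0.13 without male WT PFF and by -0.36 without female WT PFF. In macrophages the members ran from -0.69 for Cxcl2 to 1.28 for Cxcl9, which was 0.091 without male WT PFF, 0.57 without female CD163KO PFF and 2.35 without male WT MONO. There the sexes overlapped for all 8 (3.86% of genes without overlap over 7 libraries and 2.6% over 8), and 0% of genes were called in either population by edgeR (150 and 193 at an unadjusted p under 0.05, and 16 and 17 called by DESeq2).

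**Figure D5:**
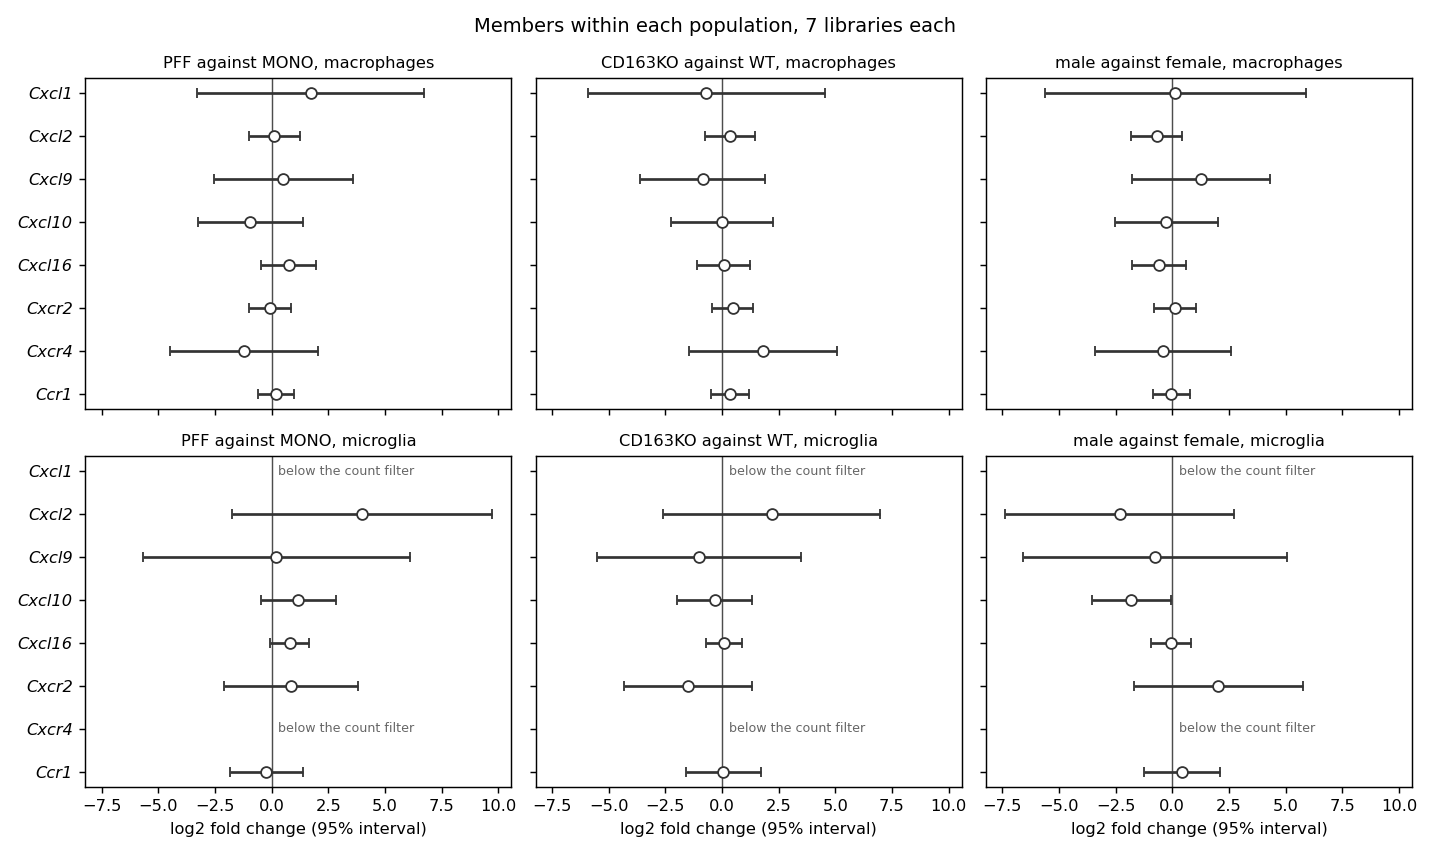
Log2 fold changes from edgeR with 95% intervals for PFF against MONO, CD163KO against WT and male against female, in macrophages (upper row) and microglia (lower row), over 7 libraries each. All intervals hold 0 except that of Cxcl10 between male and female microglia (-3.54 to -0.08), no gene is called, and Cxcl1 and Cxcr4 were below the count filter in microglia.

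The members were set among other genes of the chemokine system, again as microglia against macrophages by edgeR. Of 12 other CXC, XC and CX3C ligands, 8 passed the count filter, 3 were called lower in microglia and 1 higher. Pf4, the platelet factor also made by border-associated macrophages, fell by 7.56 on the log2 scale (median FPKM 1197 in macrophages and 10.1 in microglia), the B cell attractant Cxcl13 by 3.98, and Cxcl17 rose by 5.01. Xcl1, the third lower gene, was listed at 0 in all 8 microglia libraries and at 0 to 5.70 FPKM in macrophages. Of 15 other receptors, 10 were tested, with 3 called lower and 3 higher. Ccr7, Ccr2 and Cxcr3 were lower, Ccr2 with median FPKM of 53.8 in macrophages and 2.92 in microglia and Cxcr3, the receptor of CXCL9 and CXCL10, with at most 32.6 and at most 2.49. Cx3cr1, the fractalkine receptor of microglia (medians of 36.2 and 571), was higher. Ccr9 was called higher too, but was listed at 0 in all 8 macrophage libraries and at no more than 1.45 in microglia. Cxcl17, Xcl1, Ccr7 and Ccr9 did not reach the count filter in both populations.

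Among 6 ligands of CCR1, 5 were called lower in microglia, as the receptor was. Ccl8 differed by -8.22, Ccl7 by -7.88 (median FPKM 795 and 8.68), Ccl5 by -5.75 and Ccl6 by -3.79, whereas Ccl3 was not called and had medians of 351 and 377. Of 5 atypical receptors, which bind chemokines without G protein signalling, 3 were tested and Ccrl2 was called lower (-1.10), although its median FPKM was 27.2 in macrophages and 32.7 in microglia, so its direction rests on the TMM scaling. All 6 proteases that act on CXC chemokines were called. The neutrophil collagenase Mmp8 (-9.05), the gelatinase Mmp9 (-8.00), Dpp4 (-8.48, filter not reached in both populations) and Mmp12 (-3.27) were lower in microglia, and the sheddases Adam10 (1.37) and Adam17 (1.20) were higher.

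Of 17 signalling genes downstream of chemokine receptors that were tested, 4 were called (23.5%, beside 21.1% of all genes). Of these, 1 was lower, the GTPase Rac2 of leukocytes (-2.75), and 3 higher, Pik3r5 (2.09), Plcb2 (1.95) and Pik3cg (1.13), with a list median of -0.13 beside 0.16 for all genes. Of 15 interferon-induced genes, 11 were called lower and none higher, led by Oasl2 (-4.17), Irf7 (-3.77), Rsad2 (-3.45) and Isg15 (-2.91), with a median of -2.57. Of 13 NF-κB target genes, 6 were called lower and 2 higher, led by Il1b (-4.79), Ptgs2 (-4.15), Il1a (4.11) and Icam1 (2.14), with a median of -1.58. None of the genes of these lists was called for treatment, genotype or sex within a population.

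Most markers of the cells that the macrophage gate can hold were lower in microglia. By edgeR 11 of 12 neutrophil markers, 7 of 8 monocyte markers, 8 of 10 tested NK and T cell markers and 12 of 12 border-associated macrophage markers were called lower in microglia, and 11 of 12 homeostatic microglia markers higher. Among the markers that reached the count filter in both populations, the called-lower counts were 9 of 10, 4 of 5, 0 of 1 and 11 of 11. The twelfth neutrophil marker, Csf3r, was called higher in microglia (log2 fold change 1.07, median FPKM 25.4 in macrophages and 186 in microglia). Of B cell, endothelial and choroid plexus markers, 1 of 4, 2 of 8 and 1 of 8 were called lower. The summed FPKM of border-associated macrophage markers was 2397 to 6003 in macrophages and 43.2 to 281 in microglia. Choroid plexus markers summed to 87.1 to 12713 among macrophage libraries and to 266 to 2541 among microglia libraries. The part of these cells in the members' levels was not tested.

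Genes most like each member were ranked by Pearson's r of log2(FPKM + 1) over the 16 libraries, which come from 2 populations and share their depth and scaling. Cxcl2 was closest to Plbd1 (r = 0.98), Clec4n (0.97) and Clec4a1 (0.97), and Ccr1 to Il2rg (0.97), Lyve1 (0.97) and Pla2g7 (0.96). Cxcl9 was closest to Klrb1b (0.93), Cxcl1 to Dcn (0.89), Cxcr4 to Cd209d (0.95), Cxcl16 to Fos (0.87) and Cxcl10 to Cenpx (0.80). Between members, Cxcl1 and Cxcl9 had r = 0.87 over 16 and 0.81 over the 8 macrophage libraries, and Cxcl2 and Ccr1 had 0.90 and 0.79. For Cxcl1 and Cxcl9, male WT PFF macrophages stood far from the rest (FPKM 109.9 and 44.4, against at most 5.62 and 2.79 in any other macrophage library). Their r without that library was not computed. Within the 8 macrophage libraries the closest gene was Igtp for Ccr1 (0.995), Dip2b for Cxcr2 (0.99), Micos13 for Cxcl10 (0.98), Irf2bp1 for Cxcl9 (0.98), Rab24 for Cxcr4 (0.97), Dnajc30 for Cxcl2 (0.96), Smc5 for Cxcl1 (0.96) and Ptov1 for Cxcl16 (0.79).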

How the data were processed

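RNA of sorted cells was sequenced by SMART-seq2. Per the labels and the methods, the authors removed rRNA and low-quality reads, mapped the rest with Bowtie2 (mm10) and estimated expression with RSEM. The deposited tables hold estimated counts without normalization and FPKM, both made by the authors per RefSeq transcript, and transcripts not listed were taken as 0. Of 27787 transcripts, 99.4% matched a symbol of the RefSeq table of GRCm38.p6 and were summed per gene, and the rest took at most 0.14% of a library's counts. Libraries summed to 8648751 to 21433841 counts. The methods name triplicate sequencing without saying how it relates to each table. They also describe batches of mice, a correction for batch and the removal of outlier samples. The labels of the libraries name no batch, so no fit here held a term for it. The part of batch in these results was not tested.

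Rounded counts were fitted with edgeR 4.0.16 (R 4.3.3): TMM scaling, quasi-likelihood test, at least 10 counts in 3 libraries, and additive terms for population, sex, genotype and treatment, with 14 libraries for the populations and 7 within each. Calls needed a Benjamini-Hochberg adjusted p of at most 0.05 and a log2 fold change of at least 1. Alternatives were RLE scaling, no filter, DESeq2 1.42.0, limma 3.58.1 on log2(FPKM + 1), + 0.1 and + 5 (FPKM of at least 1), the male CD163KO MONO libraries, a replicate block (the methods describe both populations as sorted from the brains of a group, but the Y-linked counts of the female CD163KO MONO pair differ, so the block was also run without it) and leaving out each library. The fits were also run on simulated counts with known changes, and the outcome is not reported here. Named genes are the members, Cd163, up to 4 leading genes of each list and the genes most like a member. Y-linked genes, Ccl3, Cx3cr1, Adam10, Adam17, others named for being highest in male WT PFF macrophages and the neutrophil markers named in microglia were chosen after their values were seen. The members and lists were chosen with earlier results of these data known. Some listed genes are not reported here by name. Intervals cover the spread between libraries.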

Additional observations from a re-analysis of the deposited data

Results flagged for a closer look

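Within the 8 libraries of a population, 6 of 16 sets of member values had 1 library further from the rest than Dixon's 95% limit. The limit's nominal rate of about 1 in 20 did not hold for the genes at large. By the same rule 25.1% of 23092 sets of gene values that passed the count filter had such a library. Of the member sets, the flagged ones were as follows. In male WT PFF macrophages these were Cxcl1 (FPKM 109.9) and Cxcl9 (44.4), in male WT MONO macrophages Cxcl10 (34.4) and in male CD163KO MONO macrophages Cxcr2 (138). In female WT MONO microglia they were Cxcl1 (1.91) and Cxcr4 (2.60), which rest on 15 and 40 estimated counts. Both of these microglia sets failed the count filter, so that 6 of 16 and 25.1% are not counted alike. TMM-scaled FPKM was tried only once the values were known. Beside 19.3% of the gene sets that passed the filter, 5 of 16 member sets then had such a library. Cxcl1 and Cxcl9 in macrophages and Cxcr4 in microglia were again among them, Cxcl10 and Cxcr2 in macrophages and Cxcl1 in microglia were not, and Ccr1 in female CD163KO PFF macrophages (78.6) and Cxcr2 in male WT PFF microglia (207) were added.

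The male CD163KO MONO libraries were outside the main fits. In macrophages their Cxcr2 (138) and Ccr1 (76.3) were above the highest of the 3 other MONO libraries (36.0 and 44.9), and in microglia their Cxcr2 (79.9) was above 22.3. After TMM scaling Ccr1 in the male CD163KO MONO macrophages was 48.7, below the 51.1 of male WT MONO and the 50.7 of female CD163KO MONO.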

How the results depend on the processing

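The 6 members that passed the count filter in both populations were lower in microglia than in macrophages under every alternative tried. In that comparison limma called 6248 genes with a pseudocount of 1, 6281 with 0.1, and 2 members with 5. The replicate block gave 2358 genes, and beside Cxcr2 and Cxcl10, given above, it changed no other member's call. Without the female CD163KO MONO pair, tried once the values were known, it gave 1754 genes, and called 4 of these 6 members. Leaving out 1 combination gave 2029 to 4148 genes, the highest without male WT PFF.

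Within populations DESeq2 called more genes than edgeR for PFF against MONO (5 in macrophages, 30 in microglia), CD163KO against WT in microglia (3), sex (16 and 17), the interaction of genotype and PFF (11 and 29), and the difference between populations in the PFF effect (43) and the genotype effect (34). Without the count filter edgeR called 11 genes for PFF, 19 for genotype, 6 for sex and 105 for the interaction in microglia, with 1 member, Cxcr2 (-3.59, adjusted p = 0.00045), and 1 for sex in macrophages. With limma the calls in macrophages were 3, 0 and 0 for genotype (pseudocounts 1, 0.1 and 5), 4 for sex (1), and 4 and 19 for the interaction (1 and 0.1). In microglia they were 17 for PFF (0.1), 3 and 12 for sex (1 and 0.1) and 3 for the interaction (0.1). With the male CD163KO MONO libraries, 1 gene was called for sex in macrophages, and Cxcr2 for PFF in microglia turned to -0.066.

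Leaving out 1 library gave 0 to 5 genes for genotype in macrophages, 0 to 1 for PFF and 0 to 2 for sex in microglia, 2 to 3504 genes and 0 to 2 members for the interaction in macrophages, 0 to 147 genes and 0 to 1 members in microglia, and 0 to 1 genes for both differences between populations. It turned the direction of PFF in macrophages for Cxcl9 (-0.94 to 2.10), Cxcl10 (-2.31 to 0.20) and Cxcl16 (-0.36 to 1.04), of genotype in macrophages for Cxcl1 (-4.26 to 0.98), of PFF in microglia for Cxcr2 (-0.54 to 2.93), of genotype in microglia for Cxcl2 (-0.17 to 3.82) and Cxcr2 (-3.50 to 0.082), of sex in microglia for Cxcr2 (-0.36 to 3.39), and of the interaction in microglia for Cxcr2 (-5.23 to 0.96). The interaction could not be fitted without female CD163KO MONO. The causes were not tested. With 1 library per combination, each p-value rests on additive terms, and Cxcl1, Cxcl2 and Cxcr4 in microglia rest on few counts.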
